A study of Mus musculus with 6 samples.

Results

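Monocytic myeloid-derived suppressor cells (M-MDSCs) sorted from the lungs of drug-treated mice were compared with M-MDSCs sorted from the bone marrow of drug-treated mice. The comparison used the treated RNA on all 6 arrays, 3 from lung and 3 from bone marrow, which are 6 of the 12 RNAs of the series. All mice were C57BL/6. Treated mice received azacytidine, which traps DNA methyltransferases on DNA, plus entinostat, which inhibits class I histone deacetylases; the dose and schedule are not given in the sources used here. Mock mice received the vehicle, and their RNA from the same tissue was the other channel of each array. The label of the mock channel gives an age of 6 to 8 weeks, and no age was given for the treated mice. Cells were isolated by FACS. Each treated RNA pooled the cells of 3 to 6 animals, and each mock RNA those of 1 to 2. The labels call the arrays of a tissue biological replicates.

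M-MDSCs are immature monocytic cells that leave the bone marrow, enter inflamed or tumour-bearing tissue and can suppress T cells there, in part by consuming arginine and producing nitric oxide. In mice they are usually gated as cells with CD11b and high Ly6C and without Ly6G; the gate used for these samples is not given in the sources used here. Monocytes that stay in a tissue commonly lose Ly6C, gain F4/80 and MHC class II and become macrophages, while granule proteins such as myeloperoxidase mark early myeloid precursors in the marrow.

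Treated RNA was read in the Cy5 channel of every array, so that dye did not differ between the tissues. Values are log2 intensities after background correction and quantile normalization over the 6 arrays, and a difference is lung minus bone marrow on that scale, so a difference of 1 is a 2-fold change in intensity. Spots well above background made up 55.1% to 58.6% of a bone marrow array and 67.0% to 69.5% of a lung array. The median raw signal was 107.1 to 123.4 intensity units for bone marrow and 144.1 to 151.8 for lung, and 0 spots were saturated. Arrays of a tissue correlated at 0.988 to 0.997 over probes and arrays of different tissues at 0.888 to 0.899. After background correction the negative control spots stood higher on bone marrow replicate 1 (290.3 units) and lung replicate 2 (137.0 units) than on the other arrays (63.3 to 66.0 units). All bone marrow arrays lay on one slide and in one scan and all lung arrays on another. Slide and tissue therefore cannot be told apart in any difference given here. In bulk RNA, fewer cells of a type and less RNA per cell cannot be told apart either. Precision is limited by having 3 arrays a tissue.

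In the treated cells 14025 of 21543 genes (65.1%) differed between the tissues at a Benjamini-Hochberg adjusted p under 0.05 in limma, which fits a linear model to every gene and shares information on spread between genes. Higher levels in lung were found for 6769 genes (31.4%) and higher levels in bone marrow for 7256 (33.7%). More than 2-fold differences were called for 2486 genes towards lung (11.5%) and 2412 towards bone marrow (11.2%), and differences over 8-fold for 307 and 181. The 3 lung arrays and the 3 bone marrow arrays did not overlap for 15580 genes (72.3%). The median difference over all genes was -0.02, and the median size among called genes was 0.74. The median SD between arrays was 0.09 in lung and 0.14 in bone marrow. When arrays were scaled to one median without quantile normalization, which leaves the unequal background correction in place, 2450 genes were called towards lung and 903 towards bone marrow, and the median of all genes rose to 0.17. Of 164 named genes 36 did not pass under that scaling, among them Ly6c1, S100a8, S100a9, Dnmt1, Mcm7, Hk2, F13a1, Hba-a1, Cd3d, Nkg7 and the 4 named cell cycle genes, and 1 (Hdac1) changed sign. With processed scanner signals the calls over 2-fold were 4790 and 4531.

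**Figure D1:**
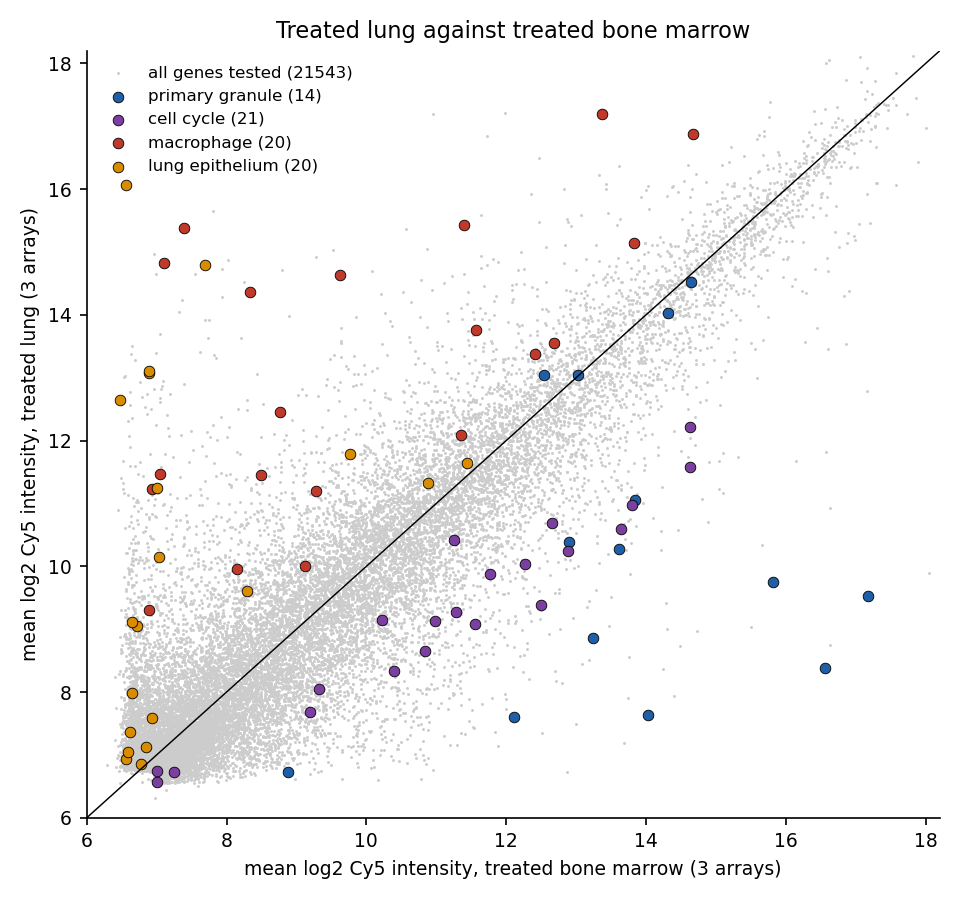
Mean log2 Cy5 intensity of each of the 21543 genes in treated bone marrow (horizontal axis, 3 arrays) and treated lung (vertical axis, 3 arrays), with the line of equal level. Coloured points are the tested members of 4 gene lists, their number in brackets; macrophage genes lie above the line, all 21 cell cycle genes lie below it, and the granule genes Ctsg and Mpo lie furthest below it.

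The position of a probe on its transcript moved with the tissue difference, which bears on every single-probe value given here. Among 2326 pairs of probes on one RefSeq transcript at least 300 bases apart, the probe nearer the 3′ end showed the higher lung minus bone marrow difference in 71.8%, with a median gap of 0.44. Of 248 pairs that differed more than 4-fold, 224 (90.3%) had the higher value at the 3′ probe. Mock cells gave 68.5%, a median gap of 0.32, and 142 of 161 pairs. Between arrays of one tissue the median gap ran from -0.01 to 0.10, and 0 pairs differed more than 4-fold. Of 4494 genes with more than 1 kept probe, 669 were higher in lung by every probe, 880 were higher in bone marrow by every probe, and 676 had probes called in opposite directions. Where the kept probes of a gene described below lay more than 2-fold apart, the other probes' log2 differences are given beside it.

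**Figure D2:**
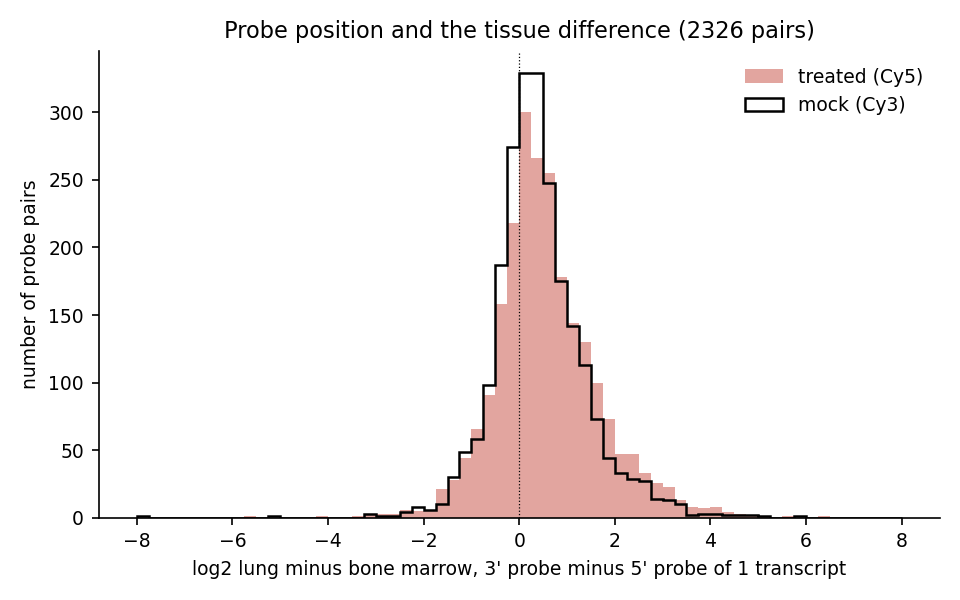
Number of probe pairs (vertical axis) by the log2 lung minus bone marrow difference of the 3′ probe minus that of the 5′ probe of the same transcript (horizontal axis), for treated cells (filled) and mock cells (line). Both distributions are centred above 0, with medians of 0.44 and 0.32 over 2326 pairs.

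The largest differences towards bone marrow were led by primary granule genes, which encode the proteases and peroxidase stored by promyelocytes and early monocytes. Of 14 tested genes of this list 10 were higher in bone marrow, 1 was higher in lung and 3 did not pass, with a median of -3.06 against -0.02 for all genes. Ctsg, which encodes cathepsin G, read 8.79, 8.36 and 8.00 in lung replicates 1 to 3 and 16.48, 16.42 and 16.77 in bone marrow replicates 1 to 3. The level was 289-fold higher in bone marrow (difference -8.17, SE 0.20, limma adjusted p = 1.1e-07). Mpo, myeloperoxidase, read 10.26, 9.06 and 9.28 in lung and 17.16, 17.06 and 17.30 in bone marrow, a 200-fold difference (-7.64, SE 0.28, limma adjusted p = 6.0e-07), and its second probe gave -7.56. Lung replicate 1 held the highest Mpo of the lung arrays and was still far below the lowest bone marrow array. Elane, neutrophil elastase, was at 9.75 ± 0.14 (SD, n = 3) in lung and 15.82 ± 0.18 in bone marrow, 66.9-fold apart. Ms4a3, a membrane protein of granulocyte and monocyte progenitors, was 84.5-fold higher in bone marrow, at 14.03 ± 0.09 against 7.63 ± 0.19. Gfi1, a repressor that acts in granulocyte formation, was 22.8-fold higher in bone marrow, with all 3 lung arrays between 7.45 and 7.72. The mm9 positions of these probes are chr14:56718795-56718854 (Ctsg), chr11:87617840-87617899 (Mpo), chr10:79350902-79350961 (Elane) and chr19:11704055-11704114 (Ms4a3); exons and UTRs under the probes were not analysed here.

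The promoters of 4 granule genes of this list and, from the lung side, of C1qc are shown because these genes mark the ends of the comparison. Each is the 250 bases upstream of the transcription start from RefSeq on GRCm38.p6, read 5′ to 3′ on the strand of the gene, with the PU.1 letters GAGGAAG or their reverse complement in capitals. PU.1 is the transcription factor encoded by Spi1 and acts in monocytes and granulocytes alike.
Elane: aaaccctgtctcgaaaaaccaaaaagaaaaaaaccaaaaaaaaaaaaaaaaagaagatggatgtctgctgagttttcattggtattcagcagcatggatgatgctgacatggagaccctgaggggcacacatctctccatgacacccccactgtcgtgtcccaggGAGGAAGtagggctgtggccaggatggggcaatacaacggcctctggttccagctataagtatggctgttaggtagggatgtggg
Prtn3: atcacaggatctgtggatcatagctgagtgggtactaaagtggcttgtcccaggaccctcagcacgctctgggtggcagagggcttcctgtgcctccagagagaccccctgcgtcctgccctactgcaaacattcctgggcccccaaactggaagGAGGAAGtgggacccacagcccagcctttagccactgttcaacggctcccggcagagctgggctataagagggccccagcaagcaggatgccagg
Mpo: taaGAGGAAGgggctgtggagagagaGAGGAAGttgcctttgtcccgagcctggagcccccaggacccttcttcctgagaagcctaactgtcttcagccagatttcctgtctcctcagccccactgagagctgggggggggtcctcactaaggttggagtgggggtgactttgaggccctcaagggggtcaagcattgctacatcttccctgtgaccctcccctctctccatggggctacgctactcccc
Ctsg: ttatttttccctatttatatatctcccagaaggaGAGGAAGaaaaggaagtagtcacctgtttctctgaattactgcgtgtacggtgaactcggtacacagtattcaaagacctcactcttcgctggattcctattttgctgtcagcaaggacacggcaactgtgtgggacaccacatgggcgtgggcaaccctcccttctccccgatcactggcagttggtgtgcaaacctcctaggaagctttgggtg
C1qc: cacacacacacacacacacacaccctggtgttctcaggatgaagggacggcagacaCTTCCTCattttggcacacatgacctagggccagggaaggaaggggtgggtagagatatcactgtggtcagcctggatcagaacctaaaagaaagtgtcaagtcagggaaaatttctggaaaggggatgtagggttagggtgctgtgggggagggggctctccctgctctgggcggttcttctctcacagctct
The windows are chr10:79886062-79886311 (plus strand, Elane), chr10:79879417-79879666 (plus, Prtn3), chr11:87793534-87793783 (plus, Mpo), chr14:56102575-56102824 (minus, Ctsg) and chr4:136892915-136893164 (minus, C1qc). All 5 windows held the PU.1 letters, against 10.6% of 32851 promoter windows of the same length, searched on both strands. The nearest match began 85 bases upstream of the start in Elane, 95 in Prtn3, 224 in Mpo, 216 in Ctsg and 194 in C1qc. Over the whole lists the letters were found in 5 of 11 primary granule windows, 4 of 13 macrophage windows and 7 of 16 interstitial macrophage windows. The C/EBP letters TTGCNNAA, present in 9.56% of all windows, were in none of the 5. The MYB core AACNG, in 74.2% of all windows, was in all 5, and the MAF letters TGCTGA, in 16.1%, was in Elane, Prtn3 and Ctsg. These are matches of letters, and binding was not measured.

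Genes of later granules were also lower in lung. Of 19 tested mature neutrophil genes 11 were higher in bone marrow, 4 were higher in lung and 4 did not pass, with a median of -1.04, or -0.22 with median scaling. Camp, the cathelicidin of secondary granules, was at 12.78 ± 0.44 in lung and 17.17 ± 0.19 in bone marrow, 20.8-fold apart (limma adjusted p = 2.3e-06). Ngp, a neutrophil granule protein, was 10.0-fold higher in bone marrow. S100a8, a subunit of calprotectin, read 15.39, 16.21 and 14.72 in lung and 16.95, 17.18 and 17.02 in bone marrow, a 3.05-fold difference (limma adjusted p = 0.0033). Its partner S100a9 was 2.76-fold higher in bone marrow (limma adjusted p = 0.0037), and for both genes the highest lung array, replicate 2, stayed below the lowest bone marrow array. Chil1, a chitinase-like protein, went the other way and was 3.32-fold higher in lung. Cxcr2, the receptor for neutrophil-attracting chemokines, read 8.39, 8.93 and 7.56 in lung and 8.83, 8.60 and 8.21 in bone marrow, and the tissues overlapped (difference -0.25, limma adjusted p = 0.52).

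Proliferation genes were higher in bone marrow without exception in the cell cycle list. All 21 tested cell cycle genes were higher in bone marrow, 17 of them more than 2-fold, with a median of -2.00. Ccna2, cyclin A2, read 9.41, 9.09 and 9.64 in lung and 12.22, 12.45 and 12.82 in bone marrow, an 8.65-fold difference. Cdca8, a subunit of the chromosomal passenger complex, was 8.31-fold higher in bone marrow, Ccnb2, cyclin B2, 7.04-fold, and Top2a, topoisomerase II alpha, 5.56-fold. Of 22 DNA replication genes 19 were higher in bone marrow, 0 were higher in lung and 3 did not pass, with a median of -1.56. Cdc45, a subunit of the replication fork helicase, was 6.43-fold higher in bone marrow. It read between 7.37 and 7.39 on the lung arrays and between 9.84 and 10.29 on the bone marrow arrays. Mcm7, another subunit of that helicase, was 5.69-fold higher in bone marrow. Hk2, hexokinase 2, was 5.54-fold higher in bone marrow. Of the 22 glycolysis and hypoxia genes 9 were higher in bone marrow and 5 higher in lung, near the shares of all genes (33.7% and 31.4%), and their median of -0.27 was 0.43 with median scaling.

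Transcription factors that set myeloid fate differed in both directions. Of 24 tested genes 14 were higher in lung, 7 were higher in bone marrow and 3 did not pass. The shares of all genes were 31.4% higher in lung and 33.7% higher in bone marrow. Myb, which maintains haematopoietic progenitors, read 7.65, 7.40 and 7.41 in lung and 12.81, 12.52 and 13.66 in bone marrow, 45.5-fold apart (limma adjusted p = 2.1e-06). Cebpe, a factor of terminal granulocyte differentiation, was 10.1-fold higher in bone marrow. Nr1h3, which encodes the oxysterol receptor LXR alpha, was 12.0-fold higher in lung, at 11.43 ± 0.31 against 7.85 ± 0.07. Stem and progenitor genes were mixed, with 12 of 22 higher in lung, 4 higher in bone marrow and a median of 0.43. Cdk6, a cell cycle kinase of progenitors, was 3.65-fold higher in bone marrow, while Gata2, a progenitor and endothelial factor, was at least 6.53-fold higher in lung, and Egfl7, which endothelium also expresses, was 7.38-fold higher in lung. Cd34, a progenitor and endothelial surface protein, read 11.49, 11.62 and 11.59 in lung and 10.79, 10.25 and 11.45 in bone marrow (difference 0.74, limma adjusted p = 0.040). The call was lost without bone marrow replicate 1 or 2 and without lung replicate 1, 2 or 3, with values of 0.45 to 0.78, and a second probe gave -0.43. Ly6a, which encodes Sca-1, did not separate the tissues (0.03, limma adjusted p = 0.84).

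**Figure D3:**
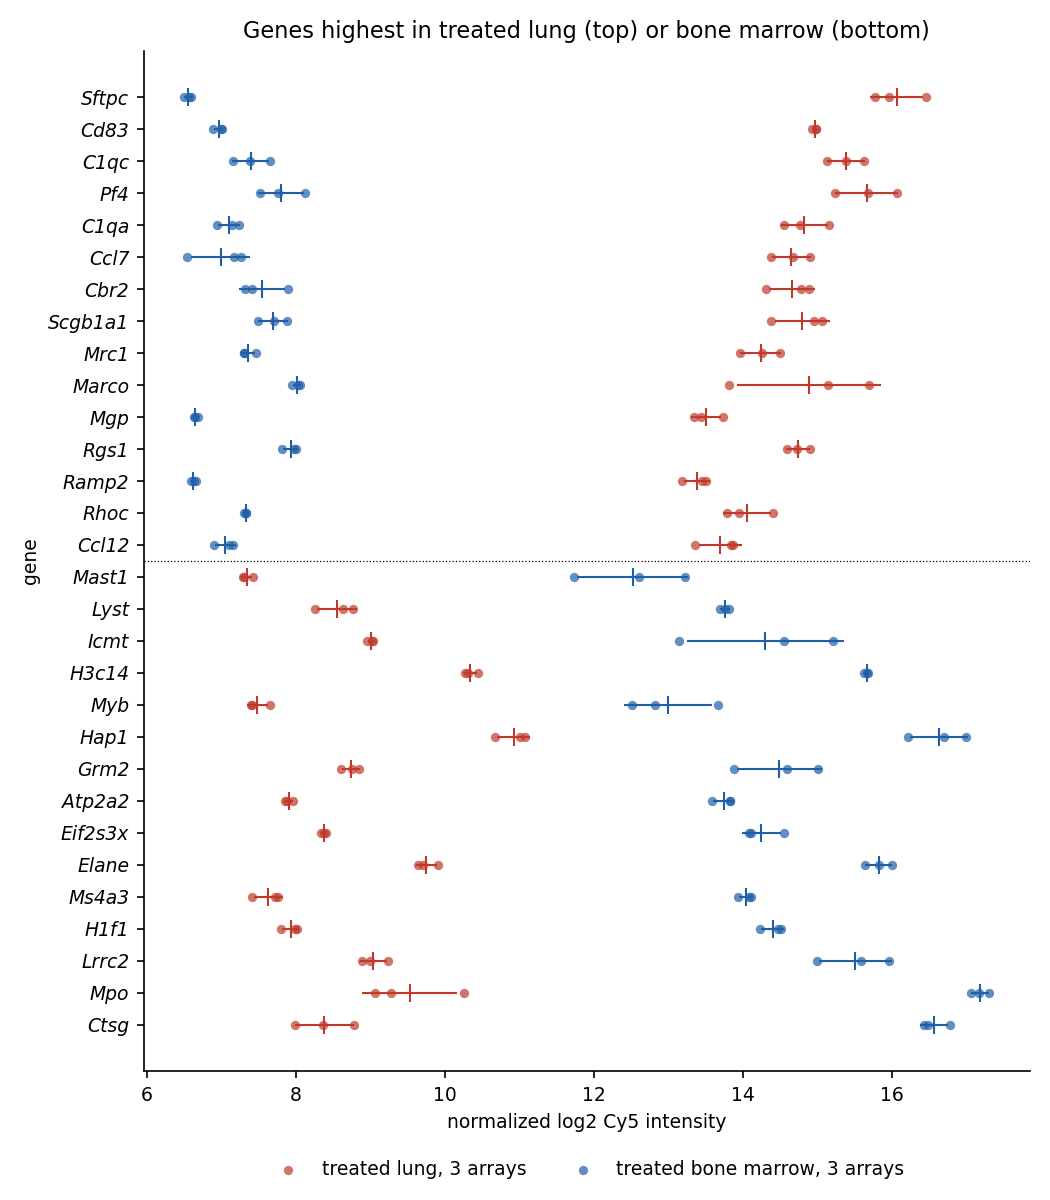
Normalized log2 Cy5 intensity (horizontal axis) of the 15 genes with the largest differences in each direction (vertical axis); each dot is one array, red for treated lung and blue for treated bone marrow, with the mean and SD of 3 arrays. Only genes whose tissues did not overlap were eligible, a condition that 72.3% of all genes met. Marco, Icmt and Mast1 show the widest spread within a tissue.

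Several of the 15 genes with the largest differences towards bone marrow rested on one probe among several. Lrrc2, a leucine-rich repeat protein, gave -6.46 by its brightest probe and 0.21 by another. Atp2a2, the calcium pump SERCA2, gave -5.84 and 0.57, Icmt, which methylates prenylated proteins, gave -5.29, -0.73 and 0.69, and Hap1, the huntingtin-associated protein, gave -5.70 and -0.19. With the probe nearest the 3′ end, Icmt, Atp2a2 and Lrrc2 turned to values above 0. The probes of Lyst, a regulator of lysosome size (-5.20 and -4.72), Eif2s3x, a translation initiation factor subunit (-5.87 and -2.85), and Mast1, a kinase (-5.17, -2.03 and -1.28), shared a direction. Grm2, a glutamate receptor, differed by -5.75. H1f1 and H3c14 encode replication-dependent histones, whose transcripts normally lack a poly(A) tail, and differed by -6.46 and -5.32.

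On the lung side the leading myeloid genes were macrophage genes. Of 20 tested macrophage genes 19 were higher in lung and 0 were higher in bone marrow, with a median of 2.70 against -0.02 for all genes. C1qc, a chain of the complement initiator C1q, read 15.63, 15.13 and 15.38 in lung and 7.65, 7.39 and 7.16 in bone marrow, a 252-fold difference (7.98, SE 0.16, limma adjusted p = 7.0e-08). C1qa, another chain, was 209-fold higher in lung, at 14.82 ± 0.31 against 7.11 ± 0.15. Ms4a7, a membrane protein of macrophages, was 32.1-fold higher in lung. Mertk, a receptor for the uptake of dead cells, was not well above background on any bone marrow array and was at least 19.7-fold higher in lung. Here and below, "at least" sets the mean of the measured tissue against the higher of the dim probe's own signal and the lowest signal well above background on each array of the other. Adgre1, which encodes F4/80, read 13.69, 13.72 and 13.88 in lung and 11.68, 11.81 and 11.20 in bone marrow, 4.59-fold apart (2.20, SE 0.16, limma adjusted p = 1.5e-05). Its second probe gave 2.67. The probes lie in mm9 at chr4:136445766-136445825 (C1qc), chr4:136452409-136452468 (C1qa) and chr17:57622868-57622927 (Adgre1).

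Markers of both main kinds of lung macrophage were higher in lung. The interstitial macrophage list had 17 of 19 tested genes higher in lung, 1 higher in bone marrow and a median of 5.79, the highest of the 36 lists. Mrc1, the mannose receptor CD206, read 14.50, 13.95 and 14.25 in lung and 7.30, 7.31 and 7.46 in bone marrow, 117-fold apart. Cbr2, a carbonyl reductase, was 138-fold higher in lung, Dab2, an endocytic adaptor, 55.9-fold, and Slco2b1, an anion transporter, at least 43.2-fold. The second probe of Cbr2 gave 4.69 against 7.11, and that of Slco2b1 4.39 against 5.47. Pf4, the platelet chemokine CXCL4, which some macrophages also express, was 230-fold higher in lung. Of 23 alveolar macrophage genes 21 were higher in lung and 0 were higher in bone marrow, with a median of 3.32. Marco, a scavenger receptor, read 15.69, 13.81 and 15.14 in lung and 8.03, 8.06 and 7.95 in bone marrow, with lung replicate 2 the lowest lung array. The same array was the lowest for Ctsk, cathepsin K, at 12.57 against 13.89 and 13.70 in the other lung arrays, and no bone marrow array exceeded 7.09. Itgax, which encodes CD11c, was 74.6-fold higher in lung, and Fabp4, a fatty acid carrier, was at 11.07 ± 0.30 against 6.98 ± 0.25.

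Receptors and enzymes of uptake and digestion followed. Of 20 scavenger and phagocytic receptor genes 18 were higher in lung and 0 were higher in bone marrow, with a median of 2.02. Stab1, a receptor for modified lipoproteins, was 55.3-fold higher in lung and Cd36, a fatty acid and lipoprotein receptor, 22.6-fold. Of 18 lipid handling genes 15 were higher in lung, among them Abca1, a cholesterol exporter, at 21.3-fold. In the lysosome list 17 of 21 genes were higher in lung, 8 of them more than 2-fold, and 1 was higher in bone marrow. Lgmn, the protease legumain, was at 15.43 ± 0.17 in lung and 11.40 ± 0.39 in bone marrow, 16.4-fold apart. Of 16 complement genes 12 were higher in lung and 1 was higher in bone marrow.

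Antigen presentation genes were high in lung. Of 12 MHC class II genes 11 were higher in lung and 0 were higher in bone marrow, with a median of 1.56. H2-Eb1, the beta chain of I-E, read 17.20, 17.12 and 17.28 in lung and 11.47, 10.71 and 10.67 in bone marrow, 76.0-fold apart (limma adjusted p = 3.7e-07). H2-Aa and H2-Ab1, which encode the chains of I-A, were 76.9-fold and 37.6-fold higher in lung. The lung arrays of H2-Eb1 lay close together, and bone marrow replicate 1 was the highest bone marrow array for all 3 genes. Cd83, a surface protein of activated dendritic cells and B cells, read 14.98, 14.92 and 14.98 in lung, was not well above background on any bone marrow array, and was at least 255-fold higher in lung. Of the 14 dendritic cell genes 8 were higher in lung and 4 were higher in bone marrow, against 31.4% and 33.7% of all genes. Ccr7, the lymph node homing receptor, was 8.51-fold higher in lung. Siglech, a lectin of plasmacytoid cells, was 3.73-fold higher in lung by the most 3′ of its 3 probes. The other Siglech probes gave 0.19, which did not pass, and -0.28, higher in bone marrow (limma adjusted p over probes = 0.20 and 0.021).

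Among the genes of a monocyte itself the tissues divided. Of 16 classical monocyte genes 9 were higher in bone marrow, 2 were higher in lung and 5 did not pass, with a median of -0.80, or -0.52 without lung replicate 1 and -0.09 with median scaling. Ly6c1, one of the genes for Ly6C, read 15.80, 16.47 and 16.03 in lung and 17.27, 17.41 and 17.18 in bone marrow, 2.28-fold apart without overlap (-1.19, SE 0.17, limma adjusted p = 5.0e-04). The second Ly6c1 probe gave -1.80. Fcnb, ficolin B, was 22.1-fold higher in bone marrow and F13a1, the coagulation factor XIII A chain, 3.61-fold (-1.85, and -3.97 by its second probe). Lyz2, lysozyme, was 6.00-fold higher in lung. Of 14 non-classical monocyte genes 11 were higher in lung, 1 was higher in bone marrow and 2 did not pass, with a median of 2.06. Cx3cr1, the fractalkine receptor of patrolling monocytes and tissue macrophages, read 14.41, 14.58 and 14.54 in lung and 11.99, 11.19 and 10.14 in bone marrow, 10.6-fold apart. Its bone marrow arrays were spread widely, with an SD of 0.93 against 0.09 in lung, and did not reach the lung arrays. Its second probe gave 1.71 against 3.40.

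Genes of surface proteins commonly used to sort these cells were measured in both tissues. Itgam, which encodes CD11b, read 13.05, 13.68 and 13.54 in lung and 13.89, 13.51 and 13.16 in bone marrow by its brightest and most 3′ probe, and the tissues overlapped (-0.10, 95% interval -0.61 to 0.42, limma adjusted p = 0.72). Its other probes, nearer the 5′ end, gave -1.07 and -2.32, and the mean of the 3 probes passed at -1.16. Ptprc, the pan-leukocyte antigen CD45, was 3.13-fold higher in lung, and Cd33, a sialic acid-binding lectin, 2.06-fold. Ly6c2 and Ly6g were not analysed here.

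**Figure D4:**
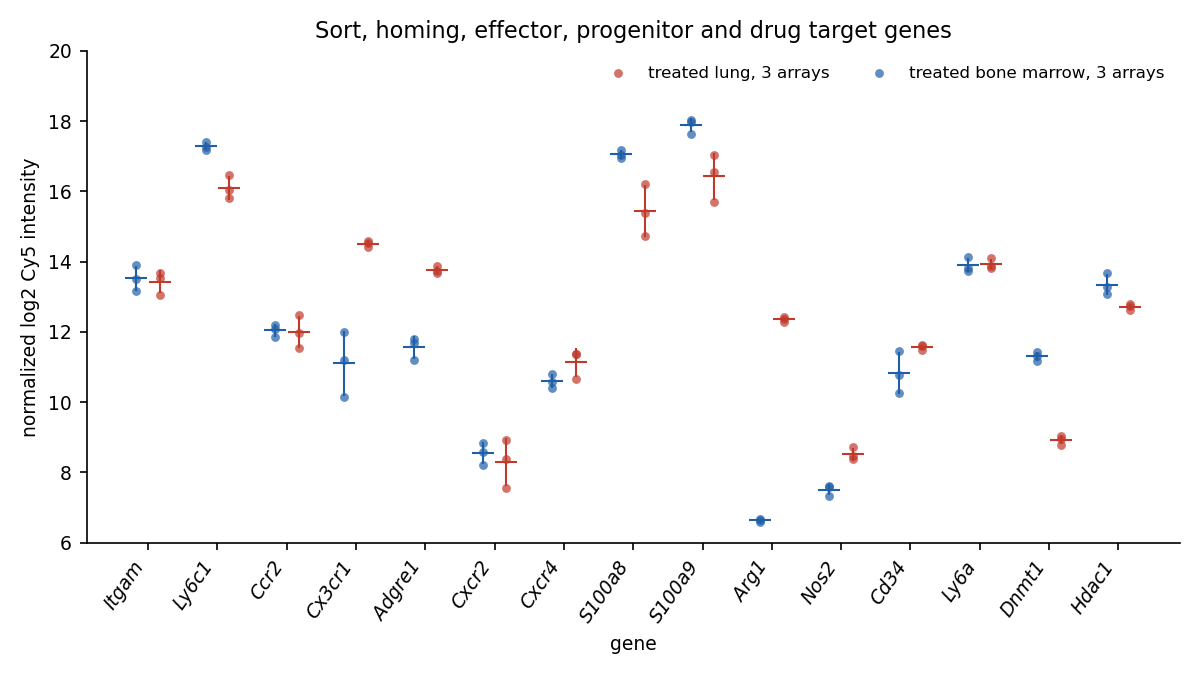
Normalized log2 Cy5 intensity (vertical axis) of 15 sort, homing, effector, progenitor and drug target genes (horizontal axis); each dot is one array, red for treated lung and blue for treated bone marrow, with the mean and SD of 3 arrays. The arrays of the tissues overlap for Itgam, Ccr2, Cxcr2, Cxcr4 and Ly6a and are separate for the other 10 genes. Over all genes they are separate for 72.3%.

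Genes for homing showed no single direction. Of 22 chemokine receptor and homing genes 15 were higher in lung, 4 were higher in bone marrow and 3 did not pass. Ccr2, the receptor through which monocytes leave the marrow, read 11.55, 12.47 and 11.98 in lung and 11.85, 12.20 and 12.07 in bone marrow (-0.04, 95% interval -0.55 to 0.47, limma adjusted p = 0.87). The bone marrow arrays lay inside the range of the lung arrays. Cxcr4, the marrow retention receptor, was 1.46-fold higher in lung with overlapping arrays (10.66 to 11.39 against 10.40 to 10.80, limma adjusted p = 0.048), a call lost without bone marrow replicate 1 or 2 or lung replicate 2 or 3 (0.42 to 0.54). S1pr1, a receptor for exit from tissue that endothelium also expresses, was 16.2-fold higher in lung, and Itga6, an integrin chain, 3.72-fold.

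Chemokine ligands had the second highest list median, 4.12, with 19 of 20 tested genes higher in lung and 0 higher in bone marrow. Ccl7, a ligand of CCR2, read 14.67, 14.37 and 14.90 in lung and 7.27, 7.17 and 6.54 in bone marrow, 201-fold apart (7.65, SE 0.21, limma adjusted p = 1.9e-07). Ccl12, another CCR2 ligand, was 99.5-fold higher in lung, Cxcl2, a ligand of CXCR2, 48.0-fold, and Cxcl13, which draws B cells, at least 86.7-fold. Every lung array of these 4 genes exceeded every bone marrow array. These genes were picked by large differences or small p, and the arrays of the tissues were separate for 72.3% of all genes. Of 20 inflammatory cytokine genes 17 were higher in lung and 1 was higher in bone marrow. Il1b read 14.72, 14.86 and 14.56 in lung and 9.21, 9.43 and 7.72 in bone marrow, 60.9-fold apart, with bone marrow replicate 3 the lowest array. Il6 was 6.83-fold higher in lung. Of 19 immediate early genes, which cells induce within minutes of a stimulus or of handling, 15 were higher in lung and 0 were higher in bone marrow, with Fosb at 18.3-fold, Zfp36 at 11.9-fold and Klf6 at 8.03-fold. The part of these genes in the cytokine and chemokine differences was not tested.

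Suppressive effector genes were 11 of 17 higher in lung and 3 of 17 higher in bone marrow, with a median of 0.91. Arg1, arginase 1, read 12.30, 12.38 and 12.42 in lung and 6.60, 6.65 and 6.69 in bone marrow, where it was not well above background on any array, so that it was at least 51.5-fold higher in lung (5.72, SE 0.08, limma adjusted p = 2.5e-08). Nos2, the inducible nitric oxide synthase, read 8.38, 8.73 and 8.46 in lung and 7.59, 7.61 and 7.32 in bone marrow, a 2.02-fold difference (limma adjusted p = 2.5e-04). Ptgs2, cyclooxygenase 2, was at least 13.1-fold higher in lung, and Pdcd1lg2, the PD-1 ligand PD-L2, was 2.45-fold higher. The genes higher in bone marrow included S100a8 and S100a9, given above. The Arg1 probe lies at chr10:24636194-24636253 and the Nos2 probe at chr11:78773567-78773626 in mm9.

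The genes of the drug target list, which holds DNA methylation genes and class I histone deacetylases, were mostly higher in bone marrow. Of 11 tested genes 9 were higher in bone marrow, 1 was higher in lung and 1 did not pass, with a median of -1.0. Dnmt1, the maintenance DNA methyltransferase, which dividing cells express, read 9.05, 8.79 and 8.95 in lung and 11.32, 11.17 and 11.42 in bone marrow, 5.17-fold apart (limma adjusted p = 1.4e-06). Tet3, a methylcytosine dioxygenase, was 7.83-fold higher in bone marrow by the most 5′ of its 3 probes (-2.97), and the others gave -1.24 and -0.38. Hdac8 was 3.08-fold higher in bone marrow. Dnmt3a, a de novo methyltransferase, was the gene higher in lung, at 10.01 ± 0.14 against 8.13 ± 0.36, 3.68-fold. Hdac1 was 1.55-fold higher in bone marrow by its brightest probe (limma adjusted p = 0.0071), but its other 2 probes gave 0.50 and 0.16, and the mean of its probes was 0.01. The type I interferon response genes were 13 of 25 higher in lung and 3 of 25 higher in bone marrow, against 31.4% and 33.7% of all genes. Oasl2, an antiviral response gene, was 3.16-fold higher in lung.

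Markers of epithelium, endothelium and fibroblasts, which are not of the myeloid lineage, were present in the lung RNA. Of 20 lung epithelium genes 17 were higher in lung and 0 were higher in bone marrow. Sftpc, surfactant protein C of alveolar type II cells, had the largest difference of all named genes, reading 15.95, 15.77 and 16.46 in lung and 6.60, 6.57 and 6.50 in bone marrow. It was not well above background on any bone marrow array and was at least 696-fold higher in lung. Scgb1a1, the club cell secretoglobin, was 137-fold higher in lung, Sftpd, surfactant protein D, at least 73.8-fold, Sftpb, surfactant protein B, at least 72.8-fold, and Sftpa1, surfactant protein A, at least 69.6-fold. Second probes gave smaller log2 differences for Sftpd (3.88 against 6.21) and Sftpb (2.79 against 6.18). The summed epithelial intensity of all 20 genes was 111876 to 172735 units on the lung arrays and 7207 to 8647 on the bone marrow arrays, where 12 genes were not well above background on any array. All 15 tested endothelium genes and 17 of 18 fibroblast and matrix genes were higher in lung. Ramp2, an adrenomedullin receptor subunit of endothelium, was at least 104-fold higher, Cldn5, an endothelial tight junction protein, 47.6-fold, Mgp, matrix Gla protein, at least 113-fold, and Sparc, a matrix protein, 72.1-fold (6.17, and 3.02 by its second probe). The endothelial sum was 47708 to 58406 units in lung and 7373 to 9029 in bone marrow, and the fibroblast sum 44810 to 51510 and 2911 to 3458. Rgs1, a regulator of G protein signalling in leukocytes, and Rhoc, a small GTPase, were 111-fold and 105-fold higher in lung, though a second Rhoc probe gave 3.70 against 6.72. The part of non-myeloid RNA in the macrophage, chemokine, MHC class II and arginase differences was not tested.

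Genes of other blood cells were also measured, and their summed intensities varied widely between lists. Over all genes 31.4% were higher in lung and 33.7% were higher in bone marrow. Of 12 B cell genes 7 were higher in lung and 5 did not pass, with sums of 13217 to 15613 units in lung and 3208 to 3808 in bone marrow, where 7 genes of the 15 on the array, Ms4a1 among them, were not well above background on any array. Ms4a1, which encodes CD20, was at least 2.28-fold higher in lung, and Blnk, an adaptor that macrophages share with B cells, 14.2-fold. All 8 plasma cell genes were higher in lung, with Jchain, the immunoglobulin joining chain, 12.6-fold. Of 12 T cell genes 6 were higher in lung and 6 did not pass, with Cd3d, a T cell receptor subunit, at 2.51-fold and sums of 5225 to 6984 and 3781 to 4444 units. Of 11 NK cell genes 6 were higher in lung and 3 were higher in bone marrow. The NK cell sums were 3930 to 4504 units in lung and 8855 to 10157 in bone marrow. Gzma, granzyme A, was 4.58-fold higher in lung. Nkg7, which is also on the primary granule list, was 5.70-fold higher in bone marrow (-2.51, and -3.71 by its second probe). Erythroid genes were 6 of 11 higher in bone marrow and 2 of 11 higher in lung. The erythroid sums were 53432 to 94493 units in bone marrow and 47191 to 56238 in lung. Hba-a1, alpha globin, read 9.71, 10.51 and 9.93 in lung and 12.80, 12.67 and 14.51 in bone marrow, with replicate 3 the highest, 9.69-fold apart; near-identical globin copies can share signal. Of 11 megakaryocyte and platelet genes 5 were higher in lung and 1 was higher in bone marrow. The 5 included Pf4, Vwf and Thbs1, which other cells also express. Ppbp, a platelet chemokine, was at least 15.9-fold higher in lung. The sums of this list, which include Pf4, were 85540 to 97852 units in lung and 5762 to 7508 in bone marrow. Mast cell, basophil and eosinophil genes were 2 of 8 in each direction, no more than the shares of all genes. Their sums were 2431 to 2673 units in lung and 2084 to 3219 in bone marrow.

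The same tissues were compared in mock cells over the same genes, and their tissue difference was then compared with that of the treated cells. Those genes were kept by their treated signal alone, so genes well above background only in mock cells were left out. Treated RNA always carried Cy5 and mock RNA Cy3, so drug and dye cannot be told apart in any difference between treated and mock cells. The median raw signal of mock RNA was 71.6 to 80.1 units for lung and 94.6 to 100.9 for bone marrow. That of treated RNA was 144.1 to 151.8 and 107.1 to 123.4 units. In mock cells 7477 genes (34.7%) were higher in lung and 6413 (29.8%) were higher in bone marrow. Of the genes higher in treated lung, 5435 (80.3%) were also higher in mock lung, which is 72.7% of the mock calls. Of the genes higher in treated bone marrow, 5442 (75%) were also higher in mock bone marrow, 84.9% of the mock calls. The mock values shared arrays with the treated ones, so the overlap is not independent evidence. The tissue difference itself differed between treated and mock cells for 2698 genes towards lung (12.5%) and 3229 towards bone marrow (15%). Those counts depended on single arrays: without lung replicate 2 they were 1748 and 1458, and without bone marrow replicate 2, lung replicate 1 or lung replicate 3 the bone marrow count was 1796, 1880 or 1642. With median scaling alone they were 22 and 4.

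Macrophage genes lay further towards lung in treated cells. The tissue difference was larger in treated cells for 19 of 20 macrophage genes, 16 of 23 alveolar macrophage genes, 16 of 19 interstitial macrophage genes and 14 of 20 chemokine genes, and smaller for 0, 0, 0 and 2. Over all genes 12.5% lay further towards lung and 15% further towards bone marrow. With median scaling only 22 and 4 of all genes passed in those directions, so these counts do not all hold there. List medians were 2.70 in treated and 1.23 in mock cells for macrophage genes, 3.32 and 1.81 for alveolar, 5.79 and 2.74 for interstitial macrophage genes, and 4.12 and 2.65 for chemokines. Epithelial genes moved alongside, with 11 of 20 further towards lung in treated cells and medians of 1.68 and 0.98. So did 9 of 15 endothelial and 8 of 18 fibroblast genes. The median change per gene was 0.48 for epithelial, 0.43 for endothelial and 0.69 for fibroblast genes. The part of these genes in the macrophage result was not tested. Apoe, apolipoprotein E, had a tissue difference of 3.83 in treated cells and 0.62 in mock cells. Cx3cr1 had 3.40 and 0.76, Arg1 5.72 and 2.90, and Ccl7 7.65 and 3.85. The other, more 5′ probe of Cx3cr1 lay 1.69 lower in treated cells and 1.13 lower in mock cells.

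Cell cycle genes, by contrast, had nearly the same tissue difference in both, with medians of -2.00 in treated and -1.92 in mock cells and 1 of 21 genes differing between them. Primary granule genes had medians of -3.06 in treated and -3.37 in mock cells, while the median change per gene was -0.22, with 4 of 14 genes further towards bone marrow in treated cells and 1 further towards lung. The classical monocyte list median was 0.02 in mock cells and -0.80 in treated cells, while the median change per gene was -0.29. Of its 16 genes 6 lay further towards bone marrow in treated cells and 1 further towards lung. Ly6c1 had a tissue difference of -1.19 in treated and 0.01 in mock cells by its brightest probe. Its other, more 5′ probe gave -1.80 in treated cells and lay 0.79 below the brightest probe in mock cells. B cell genes had a smaller lung excess in treated cells, with medians of 0.45 against 1.37 and 7 of 12 genes further towards bone marrow, and plasma cell genes had 0.74 against 1.85. The median change per gene was -0.67 for B cell and -0.82 for plasma cell genes.

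**Figure D5:**
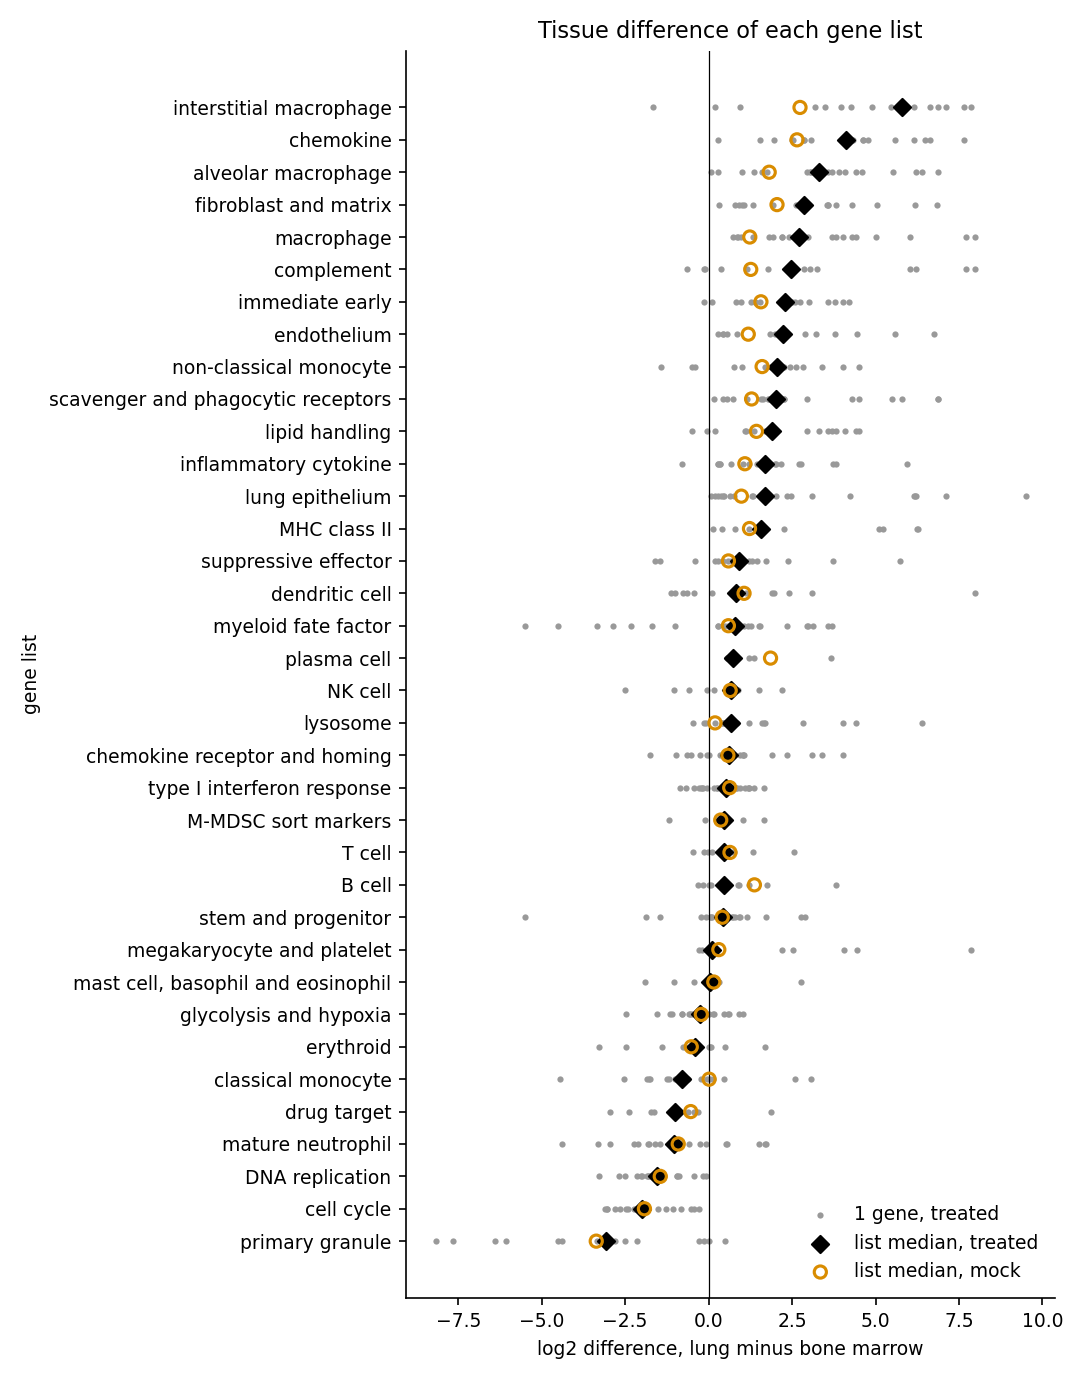
Log2 lung minus bone marrow difference (horizontal axis) for the 36 gene lists (vertical axis); grey dots are single genes in treated cells, diamonds the treated list median and open circles the mock list median. The treated median exceeds the mock median by more than 1 unit for the interstitial macrophage, alveolar macrophage, macrophage, chemokine, complement and endothelium lists, and the medians nearly coincide for cell cycle and DNA replication. The median change per gene is below 1 unit for complement (0.79) and endothelium (0.43).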

How the data were processed

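On each of 6 Agilent mouse arrays, sorted M-MDSC RNA of mock mice carried Cy3 and that of treated mice Cy5, per the labels. Spot intensity values were deposited as made by Agilent Feature Extraction 10.7.3.1, and probes are placed on mm9, per the file headers. About 400 ng of RNA extracted with TRIzol went into cDNA, per the labels' protocols. The 2 deposited matrices of log ratios were not used here, because they do not keep the channels apart.

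With limma 3.58.1 in R 4.3.3, mean signals were corrected by normexp (offset 50, median local background), taken to log2 and quantile normalized within Cy5; Cy3 was treated alike for the mock comparison. Control spots and outlier-marked spots were left out (5 genes lack a value on an array), and spots of a probe were averaged. Of 39429 probes, 27026 were well above background in Cy5 on at least 2 arrays of a tissue. Symbols came from RefSeq accessions for 26581 probes, symbols for 2597 and synonyms for 492, and 9759 kept the name in the file, so that 6531 of 21543 genes have an identifier only. A gene was its brightest probe. Fits used lmFit and eBayes (4 residual and 3.525 prior degrees of freedom), two-sided, with Benjamini-Hochberg adjustment over all genes and a threshold of 0.05. The change of the tissue difference was tested on Cy5 minus Cy3 within arrays. Steps were tested on simulated data.

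Named genes are the 15 highest and 15 lowest differences among called, non-overlapping genes with a symbol, the 4 or fewer tested genes of a list whose p was smallest, 18 genes chosen by name, and the 5 highest and 5 lowest changes of the tissue difference. The members and lists were chosen with earlier results of these data known. Replicate numbers gave no sign of pairing the samples. Deviations of same-numbered arrays correlated at -0.17, 0.25 and -0.03, and those of differently numbered arrays at -0.26 to 0.25. These correlations cannot show that the samples were unpaired. Some genes of the lists are counted but not reported singly here.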

Additional observations from a re-analysis of the deposited data

Results flagged for a closer look

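The tissue difference itself differed between treated and mock cells for 17 genes that were described here and were chosen by name or had the largest such changes (limma adjusted p under 0.05 for the difference of differences, in log2 units). Drug and dye cannot be told apart in these changes. With median scaling only 22 genes towards lung and 4 towards bone marrow passed over all genes tested. Not all of the genes listed below therefore passed there. Towards lung in treated cells these were Ccl7 (3.80), Cd209f, a C-type lectin (3.25), Apoe (3.21), Cxcl3, a neutrophil attractant (3.17), Mrc1 (3.16), Arg1 (2.82), Cx3cr1 (2.65) and Adgre1 (0.86). Towards bone marrow they were Ly6d, a marker of lymphoid progenitors (-3.41), D13Ertd608e, a transcript without an assigned role here (-2.99), Il22ra2, the soluble receptor of interleukin 22 (-2.57), Ddit4, a stress-induced inhibitor of mTOR (-2.02), Hba-a2, alpha globin (-1.95), Ly6c1 (-1.19), Ly6a (-1.13), Cxcr4 (-0.97) and Cd34 (-0.78). Ly6d differed by 2.64 in mock cells and by -0.78 in treated cells, where it did not pass (limma adjusted p = 0.14) except without lung replicate 1 (-1.17, limma adjusted p = 0.037). Ddit4 was higher in lung in both, by 4.10 in mock and 2.08 in treated cells.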

How the results depend on the processing

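The direction and call of every named gene (164 genes) held with the replicate number as a block (replicate block: 6769 and 7256 calls in the main fit, 6450 and 6902 with the block), although the numbers gave no sign of pairing the samples. Processed scanner signals gave 4790 and 4531 genes over 2-fold towards lung and bone marrow and 1653 genes whose tissue difference lay further towards lung in treated cells. List medians moved by more than the SD between arrays for 29 of 36 lists with median scaling, 23 with processed signals and 24 with median scaling and negative-control background, against 0 with the block. Loess with Aquantile gave 1185 further towards bone marrow. Median scaling gave 2450 and 903 calls, 732 over 2-fold towards bone marrow, 3959 mock genes higher in bone marrow, and 22 and 4 changes of the tissue difference; 36 named genes no longer passed. With negative-control background as well, an alternative chosen after seeing the data, the mock count was 3845 and the changes towards bone marrow 7398, and 3 named genes no longer passed. Leaving out bone marrow replicate 1 and lung replicate 2 together, also chosen after seeing the data, gave 828 and 367 changes. Leaving out each array in turn gave 1748 to 2657 changes towards lung and 1458 to 3341 towards bone marrow. Reversals were Hdac1 (0.16 with median scaling, 0.012 with the mean of probes) and Pfkfb3 (-0.34, mean of probes). The brightest probe of Pfkfb3 gave 1.03 and its other probe -1.70. Icmt (0.69), Atp2a2 (0.57) and Lrrc2 (0.21) reversed with the probe nearest the 3′ end, a setting chosen after seeing the data. The glycolysis median reversed to 0.43 with median scaling and 0.015 with negative-control background too. So did the medians of sort markers (-0.058, mean of probes) and erythroid genes (0.016 with the mean of probes and with the 3′ probe). The cause was not tested. Signal near background limits 3085 genes on the bone marrow arrays and 373 on the lung arrays, which have only a bound there.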
